A study of Homo sapiens with 3 samples.

Results

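The 7 mRNAs of mitochondrial DNA that encode subunits of respiratory complex I, MT-ND1, MT-ND2, MT-ND3, MT-ND4, MT-ND4L, MT-ND5 and MT-ND6, were chosen by gene symbol, and all 7 were found among 36817 gene identifiers. They were followed in MOLM-13, an established line of human acute myeloid leukaemia, by eCLIP, in which RNA is cross-linked to a protein, recovered with it and sequenced. There were 2 DDX6 immunoprecipitation (IP) libraries, made with an antibody against DDX6, and 1 input library made without it. All 3 came from this line, with no genotype change or treatment named in the labels, after ultraviolet cross-linking and RNase I trimming. The labels do not tie the IP replicates to separate cultures, so the spread that the p-values rest on may be technical.

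Complex I oxidises NADH and pumps protons across the inner mitochondrial membrane. The products of these 7 genes are the core of its membrane arm, while its other subunits are nuclear-encoded and imported. Mitochondrial DNA is transcribed as long precursors in which tRNAs lie between the coding sequences, and cutting out the tRNAs releases the mRNAs. These mRNAs have little or no untranslated sequence and are translated inside the mitochondrion. MT-ND4L and MT-ND4 overlap and stay on 1 mRNA, and MT-ND6 is read from the opposite strand to the rest. DDX6 is a cytoplasmic RNA helicase that represses translation and is needed for P-bodies.

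Depth differed between libraries. IP replicate 1 had 4643494 counted reads, IP replicate 2 had 1244213 and the input had 7807540, and exonic reads were 67.6%, 62.6% and 30.7% of these. Every one of the 10 myeloid leukaemia markers checked had exonic reads in all 3 libraries. The markers of T cells, epithelial cells and fibroblasts, 3 for each, took at most 84 reads in a library for any one of these cell types, and CD3E, CD8A, EPCAM and COL1A2 were at 0 in all 3.

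MT-ND3 and MT-ND2 were higher in the DDX6 IP than in the input, MT-ND4 was lower, and MT-ND1, MT-ND4L, MT-ND5 and MT-ND6 did not pass the test. Thus 2 of the 7 were higher, where 16.7% of all 10392 tested genes were, and 1 was lower, where 11.4% were, or 3 called either way, where 28.2% were. The test was edgeR's quasi-likelihood test on exonic reads with TMM scaling, and a call needed an adjusted p (Benjamini-Hochberg, over all tested genes) under 0.05. The median log2 fold of the 7 was -0.11, and that of all tested genes 0.00. When reads were scaled to library size instead, the median of all genes was 1.24 log2, and MT-ND1, MT-ND4, MT-ND4L, MT-ND5 and MT-ND6 changed sign, so higher and lower here are relative to the exonic reads of the typical gene. Relative to that median MT-ND4 lay at -1.15, MT-ND2 at 1.20 and MT-ND3 at 1.46 with library-size scaling, against -1.14, 1.22 and 1.47 with TMM. Both fits use the same exonic reads and genes and differ in scaling alone, so this closeness is built in and is no check. Values relative to the median differed when intronic reads were included. Relative to the all-gene median of that fit MT-ND4 lay at 0.011, MT-ND1 at 1.04, MT-ND2 at 2.37 and MT-ND3 at 2.62, and edgeR called 6 of the 7 higher, all but MT-ND4, where 17.1% of all genes were. The 7 genes had 0 reads outside coding regions, and exonic reads were 30.7% of the input, against 67.6% and 62.6% of the IP libraries. A rise of genes without intronic reads is therefore built into this setting, and the 6 calls do not set the 7 genes apart. With library-size scaling the same 6 were called higher, where 67.3% of all genes were.

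**Figure D1:**
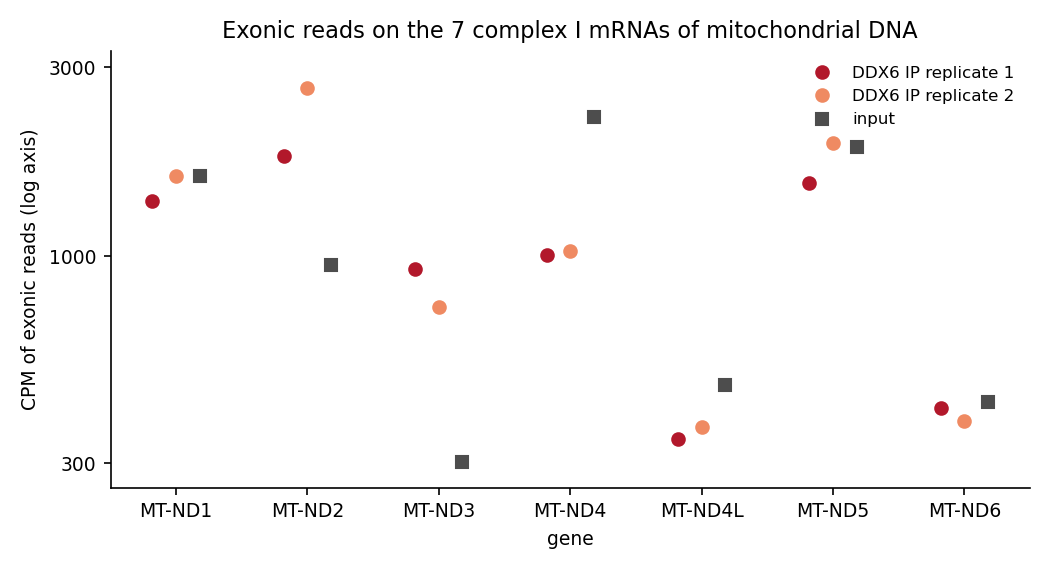
CPM of exonic reads after TMM scaling (log axis) on each of the 7 genes, with 1 point per library (circles, DDX6 IP replicates 1 and 2; square, input). For MT-ND2 and MT-ND3 both IP libraries lie above the input, and for MT-ND1, MT-ND4, MT-ND4L and MT-ND6 both lie below it; of these 4, only MT-ND4 passed the test.

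MT-ND2, MT-ND4 and MT-ND5 encode the large antiporter-like subunits of the proton-pumping arm; the first was higher, the second lower, and MT-ND5 did not pass. MT-ND2 (ENSG00000198763.3) had 5736 and 2111 exonic reads in IP replicates 1 and 2, against 2104 in the input. On the CPM scale, which relates counts to the TMM-scaled exonic reads of a library, this is 2228 ± 617 (SD, n = 2) in the IP and 952 in the input. The log2 fold was 1.23 (SE 0.36, edgeR adjusted p = 0.00709). Both IP libraries were above the input, at 0.91 and 1.48 log2. The call ended under both other read filters, with edgeR adjusted p = 0.0619 with no filter beyond 1 read and 0.0555 at 30 reads or more.

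MT-ND4 (ENSG00000198886.2) had 3227 and 817 reads in the IP libraries, against 4961 in the input. With 1019 ± 16.3 CPM (SD, n = 2) in the IP, against 2244 CPM in the input, it had the lowest log2 fold of the 7, -1.14 (SE 0.32, edgeR adjusted p = 0.00412). The replicates were close, at -1.15 and -1.12 log2, and both were below the input. Of all tested genes, 7.86% had a lower log2 fold. With library-size scaling MT-ND4 was at 0.089 log2, with intronic reads included at 0.033, and it was called in neither. MT-ND5 (ENSG00000198786.2) had 4912 and 1526 reads in the IP libraries, against 4163 in the input, or 1730 ± 277 CPM (SD, n = 2) and 1883 CPM. Its IP replicates lay on either side of the input, at -0.30 and 0.03 log2, and the fitted log2 fold was -0.12 (SE 0.34, edgeR adjusted p = 0.824).

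MT-ND1 encodes the subunit at the joint of the membrane and matrix arms, next to the quinone site. MT-ND1 (ENSG00000198888.2) had 4402 and 1259 reads in the IP libraries, against 3531 in the input, or 1482 ± 151 CPM (SD, n = 2) and 1597 CPM. At -0.22 and -0.01 log2 it was near the typical gene in both replicates (log2 fold -0.11, SE 0.33, edgeR adjusted p = 0.844).

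MT-ND3, MT-ND4L and MT-ND6 encode small membrane subunits between the quinone site and the pumping subunits. MT-ND3 (ENSG00000198840.2) had 2966 and 591 reads in the IP libraries, against 669 in the input. With 836 ± 128 CPM (SD, n = 2) in the IP, against 303 CPM in the input, it had the highest log2 fold of the 7, 1.47 (SE 0.31, edgeR adjusted p = 0.000159). Its replicates were at 1.61 and 1.30 log2, and the call held in all 6 alternative fits (edgeR or DESeq2 adjusted p from 5.05e-10 to 0.0108). The replicates ordered MT-ND3 and MT-ND2 differently, with MT-ND3 the higher in IP replicate 1 and MT-ND2 in IP replicate 2.

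MT-ND4L (ENSG00000212907.2) had 1103 and 293 reads in the IP libraries, against 1047 in the input, or 357 ± 17.9 CPM (SD, n = 2) and 474 CPM. Both IP values were below the input, at -0.46 and -0.36 log2, and the fitted log2 fold was -0.41 (SE 0.26, edgeR adjusted p = 0.244). MT-ND6 (ENSG00000198695.2), the member on the light strand, had 1324 and 304 reads in the IP libraries, against 944 in the input, or 399 ± 21.1 CPM (SD, n = 2) and 427 CPM. Its log2 fold of -0.10 (SE 0.26, edgeR adjusted p = 0.824) lay beside those of MT-ND1 and MT-ND5 on the heavy-strand transcript, closer than their SE.

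**Figure D2:**
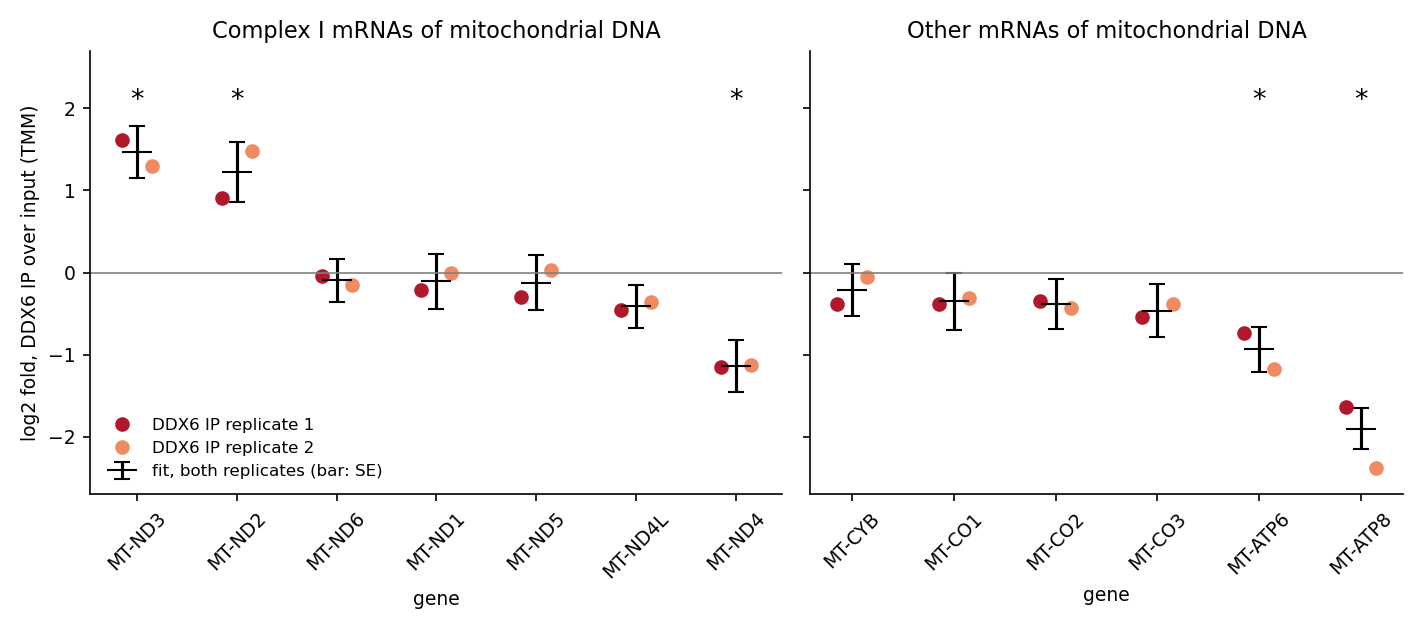
Log2 fold of DDX6 IP over input (TMM scaling) for the 7 complex I mRNAs (left) and the 6 other mRNAs (right) of mitochondrial DNA, each ordered from high to low. Circles are the 2 IP replicates, black bars the fit with its SE, and an asterisk an edgeR adjusted p under 0.05; MT-ND3 and MT-ND2 stand above 0 and MT-ND4, MT-ATP6 and MT-ATP8 below it.

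Ratios between 2 genes within a library do not depend on scaling. They are made from the same reads as the log2 folds above, so they restate those contrasts and are no separate support. MT-ND3 had 2.69 and 2.02 reads per read of MT-ND4L in IP replicates 1 and 2, against 0.639 in the input. For MT-ND2 over MT-ND1 the ratio was 1.30 and 1.68 in the IP libraries, against 0.596 in the input. Both ratios were higher in either IP library than in the input. MT-ND4L over MT-ND4, which share an mRNA, gave 0.342 and 0.359 in the IP libraries, against 0.211 in the input, so this ratio too was higher in either IP library. For MT-ND6 over MT-ND5 the IP values of 0.270 and 0.199 lay on either side of the input value of 0.227.

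As a group the 7 genes took 0.510% and 0.555% of all counted reads in the IP libraries, 0.532% ± 0.0318 (SD, n = 2), against 0.223% in the input. Exact Clopper-Pearson intervals at 95%, which cover counting error only, were 0.503% to 0.516% and 0.542% to 0.568% in the IP and 0.220% to 0.226% in the input. The ratio of IP to input share was 2.28 and 2.49, against 1.04 and 1.22 when only exonic reads were the denominator. Among the reads on all 13 mRNAs of mitochondrial DNA, the 7 had 57.4% and 60.3% in the IP libraries, against 50.8% in the input. Without MT-ND2 and MT-ND3, left out after their values were seen, the other 5 had 36.3% and 36.7%, against 42.7% in the input.

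All reads of the 7 genes lay in the coding region column, with 0 in every other region. Compared with coding regions of other genes, in a fit scaled over exons and introns together, MT-ND3 (log2 fold 2.06, edgeR adjusted p = 7.25e-07) and MT-ND2 (1.81, edgeR adjusted p = 7.02e-05) were again higher. That is 2 of 7, where 51.2% of 8169 tested coding regions were higher and 51.4% were called either way. With library-size scaling 6 of 7 coding regions were called higher, all but that of MT-ND4, where 78.6% of all were. By edgeR 0 of 7 were lower, where 0.208% were, also 0 at an unadjusted p under 0.05, where 0.257% were, and 0 by DESeq2, where 0.0245% were. The other 5 had log2 folds from -0.55 for MT-ND4 to 0.50 for MT-ND6, below the median of 1.02 over all coding regions. MT-ND4 lay at the low end, with 1.55% of coding regions below it. Its edgeR adjusted p there was 0.202, and 0.0306 with no read filter (log2 fold -0.84).

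The authors' peak lists give each peak a log2 fold and a -log10 p of IP over input, and these values are the authors' own. The 7 genes had 53 peaks covering 2328 bases in the list of IP replicate 1 and 39 covering 1675 bases in that of IP replicate 2, all on the strand of the named gene. Of these, 36 of the 39 (92.3%) overlapped a peak of the other list by at least 1 base, and 42 of the 53 (79.2%). The same shares over all peaks were not computed, so these overlaps are descriptions and do not set the 7 genes apart. Positions below are in hg19, chromosome M, counted from 1. Peaks on these genes were mostly weak. Their median log2 fold was 0.90 and 0.64 in the lists of IP replicates 1 and 2, where all peaks had 1.77 and 2.29. Peaks on the 6 other mRNAs of mitochondrial DNA had medians of 1.04 and 0.93, so medians below that of all peaks were not particular to the 7.

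At a log2 fold of at least 3 and a -log10 p of at least 3, 0 of 53 peaks passed in IP replicate 1, where 11.5% of all peaks in that list did. In IP replicate 2, 1 of 39 passed, where 12.9% did. The counts were again 0 and 1 at a log2 fold of at least 3 and a -log10 p of at least 5, beside 8.52% and 5.81% of all peaks. At a log2 fold of at least 1 and a -log10 p of at least 3, 23 of 53 (43.4%) passed in IP replicate 1, beside 34.3% of all peaks. In IP replicate 2, 11 of 39 (28.2%) passed, beside 23.9%. Among peaks in coding regions alone 44.3% and 28% passed this looser rule, so the 7 genes were near that share. At a log2 fold and a -log10 p of at least 3, 14.9% of coding peaks passed in either list. Of the peaks on the 6 other mRNAs of mitochondrial DNA, 1 of 61 and 0 of 34 passed that cut in IP replicates 1 and 2. The looser rule was passed by 54.1% and 35.3% of them. Of the 1587 peaks in the authors' deposited list of reproducible peaks, 26 lay on mitochondrial DNA. All 26 overlapped a peak named for a mitochondrial tRNA, and 0 overlapped a peak of the 7 mRNAs. Every peak in that list had a log2 fold and a -log10 p of at least 3. Only 0 of 53 and 1 of 39 peaks of the 7 genes passed this cut in the lists of IP replicates 1 and 2. The lack of overlap therefore largely restates those counts and is no separate support.

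The single strong peak lay at the border of MT-ND2. It ran from 4431 to 4471 on the plus strand in the list of IP replicate 2, with a log2 fold of 5.50, and 39 of its 41 bases were in the exon of the methionine tRNA gene MT-TM and 2 in MT-ND2, to which the authors assigned it. Inside MT-ND2 the peaks were low, between 0.0099 and 0.94 log2 over 6 peaks in IP replicate 1 and between -0.88 and 0.26 over 5 in IP replicate 2. The gene as a whole was at 2.20 and 2.65 log2 in these libraries when scaled to library size, a larger number than that of every peak inside it in both replicates. With no peak caller given, the scaling of the authors' peak folds is not known, so gene and peak values may not share a scale. Among the other members the gene value was also the larger for MT-ND3 in both replicates, and for MT-ND4L and MT-ND6 in IP replicate 2 alone, by 0.20 and 0.24 log2. MT-TM itself had 312 and 89 reads in the IP libraries, against 8 in the input (log2 fold 4.82, SE 0.44, edgeR adjusted p = 2.71e-14). How the counting assigned reads that span the border of the tRNA and the mRNA is not given in the sources used here, and their part in the MT-ND2 result was not tested.

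MT-ND3 showed a smaller gap of the same kind, with the same limit on scale. Scaled to library size it was at 2.90 and 2.47 log2 in IP replicates 1 and 2, while its highest peaks were at 2.30 (10082 to 10121) and 1.96 (10083 to 10115). It lies between the glycine tRNA gene MT-TG and the arginine tRNA gene MT-TR. MT-TG had 761 and 471 reads in the IP libraries, against 33 in the input (log2 fold 4.76, edgeR adjusted p = 2.60e-16). MT-TR had 72 and 26 reads in the IP libraries, against 1 in the input, which is 54.3-fold after scaling (95% interval from counting error 9.52 to 2166). Peaks of these tRNAs had log2 folds of 4.35 to 5.91 over both lists. Their part in the MT-ND3 result was not tested. Other members also had tRNA neighbours, whose part in their results was not tested either. MT-TR also lies before MT-ND4L, and MT-TL2 (4.49 log2, 189 and 111 reads in the IP libraries, against 9 in the input) before MT-ND5. MT-TH (2.99 log2) follows MT-ND4. MT-TE, next to MT-ND6, was at 0.18 log2. MT-TI, whose peaks lay between those of MT-ND1 and MT-ND2, was at 4.79 log2 (2362 and 1517 reads in the IP libraries, against 105 in the input). Also checked were MT-TS2, at 1.97 log2, and MT-TQ, at 0.19 log2.

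The peaks inside MT-ND3 were strongest at its start. In IP replicate 1 a run of abutting peaks fell step by step along the mRNA, with 2.30, 1.70, 1.39, 1.16 and 0.96 log2 between 10082 and 10189, and a last peak at 10274 to 10311 had 1.08. In IP replicate 2 the first peak was at 1.96 log2 and the last, at 10280 to 10289, at 0.34. MT-ND1 had the same layout. Its peak at 3309 to 3344 in IP replicate 1 had a log2 fold of 2.30, and the peaks after it fell through 1.85, 1.70, 1.58 and 1.41 to 1.01 at 3426 to 3440. The matching first peak in IP replicate 2, at 3310 to 3372, had 2.18 log2, and the next, at 3373 to 3395, 0.78. Both first peaks of MT-ND1 had a -log10 p of 400, the highest the lists hold. From 3443 on, all MT-ND1 peaks lay between 0.66 and 1.06 log2 in both lists. Upstream of MT-ND1 lies the leucine tRNA gene MT-TL1, with 93 and 46 reads in the IP libraries, against 9 in the input, and its part in these first peaks was not tested.

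**Figure D3:**
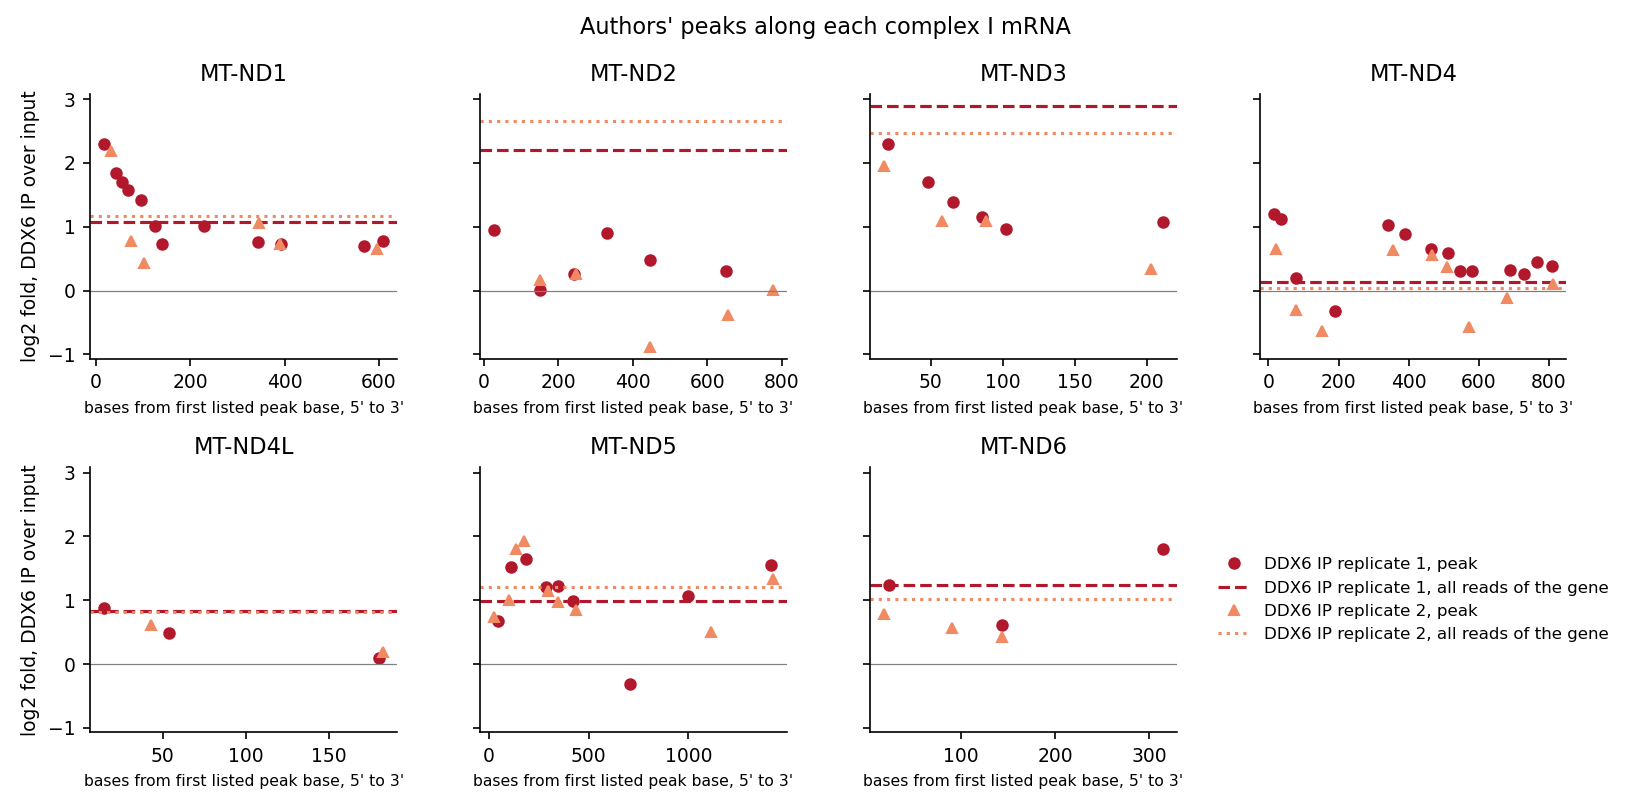
Log2 fold of each of the authors' peaks inside the 7 mRNAs against its distance in bases from the first listed peak base, 5' to 3' (circles, IP replicate 1; triangles, IP replicate 2), with the fold of all reads of the gene scaled to library size as lines. Peaks of MT-ND1 and MT-ND3 are highest at the 5' side, as are, at lower folds, those of MT-ND4 and MT-ND4L. In both replicates the lines of MT-ND2 and MT-ND3 run above all their peaks. The scaling of the peak folds is not known, so points and lines may not share a scale. The MT-ND2 peak that overlaps MT-TM is not drawn.

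Over the 12 peaks of MT-ND1 in IP replicate 1, the rank correlation of log2 fold with distance was -0.90, and over its 6 peaks in IP replicate 2 it was -0.54. It was -0.94 over 6 peaks of MT-ND3 in IP replicate 1. Along MT-ND5 no such fall was seen, with -0.05 and -0.12 over 9 peaks in each list. MT-ND4 had -0.35 over 14 peaks in IP replicate 1 and -0.22 over 9 in IP replicate 2. MT-ND2 had -0.09 over 6 peaks in IP replicate 1. Peaks of a gene come from the same libraries and many abut, so these values are descriptions.

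MT-ND5 had its strongest peaks inside the gene and at like places in both lists. They lay at 12614 to 12693 in IP replicate 1 (1.65 log2, -log10 p of 84.6) and at 12612 to 12675 in IP replicate 2 (1.92 log2, -log10 p of 51.3). A second site near the 3' side, at 13853 to 13913 and 13869 to 13915, had 1.56 and 1.33 log2. Scaled to library size, all reads of MT-ND5 together were at 0.99 and 1.20 log2, below these sites in both replicates, though the scale of the peak folds is not known.

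MT-ND4 had 14 and 9 peaks, mostly weak. They ran from -0.33 to 1.20 log2 in IP replicate 1 and from -0.64 to 0.66 in IP replicate 2, where 4 of 9 were below 0. The highest in IP replicate 1, at 11083 to 11114, overlapped the highest in IP replicate 2, at 11092 to 11115. The smallest p in both lists was at one place, 11400 to 11449 (1.03 log2) in IP replicate 1 and 11401 to 11472 (0.64 log2) in IP replicate 2. MT-ND4L had 3 and 2 peaks, none above 0.88 log2, and both lists had a higher one toward the start of the gene. MT-ND6 had 3 peaks in each list. Its strongest in IP replicate 1, at 14165 to 14206 on the minus strand (1.80 log2), had no counterpart in IP replicate 2, where no MT-ND6 peak reached a -log10 p of 3.

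Nuclear copies of these genes carried few reads. Counted reads fell on 41 pseudogenes named for them, with 137 and 67 exonic reads in the IP libraries and 62 in the input, or 0.579%, 0.971% and 0.356% of the reads on the 7 genes. The most read were MTND4P12 (28 and 10 reads in the IP libraries, 28 in the input), MTND4LP30 (15 and 15, against 6) and MTND2P28 (22 and 5, against 7). The sources used here do not say how reads matching both a mitochondrial gene and a nuclear copy were placed, nor how reads in the overlap of MT-ND4L and MT-ND4 were shared out, so values of these genes are uncertain to that extent.

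Of the other 6 mRNAs of mitochondrial DNA edgeR called 0 higher and 2 lower, with the same counts at an unadjusted p under 0.05 and by DESeq2, and their median log2 fold was -0.42. Over all genes the unadjusted shares were 21.7% higher and 16.8% lower, and those of DESeq2 6.53% and 2.46%. With introns included MT-CO1, MT-CO2, MT-CO3 and MT-CYB were instead called higher, and with library-size scaling MT-CO1, MT-CO2 and MT-CYB were. MT-ATP8 (log2 fold -1.90, edgeR adjusted p = 3.67e-09) and MT-ATP6 (-0.93, edgeR adjusted p = 0.00677), which encode ATP synthase subunits and also overlap on 1 mRNA, were lower. MT-ATP6 lost its call with library-size scaling (0.30 log2), with introns included and with no read filter, and MT-ATP8 with introns included. The cytochrome oxidase mRNAs MT-CO1 (-0.35), MT-CO2 (-0.39) and MT-CO3 (-0.46) and the cytochrome b mRNA MT-CYB (-0.21) did not pass with TMM on exonic reads. Of the rRNAs, MT-RNR2 was lower (-1.26, edgeR adjusted p = 0.0327), a call lost in 4 of 6 alternative fits, and MT-RNR1 did not pass (-0.65). The mitochondrial tRNAs were far above all of these, with 13 of 15 tested higher and 0 lower by edgeR, the same at an unadjusted p under 0.05 and by DESeq2, and a median of 4.01, led by MT-TF (6.09 log2). No test of the mRNAs against the tRNAs was run.

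**Figure D4:**
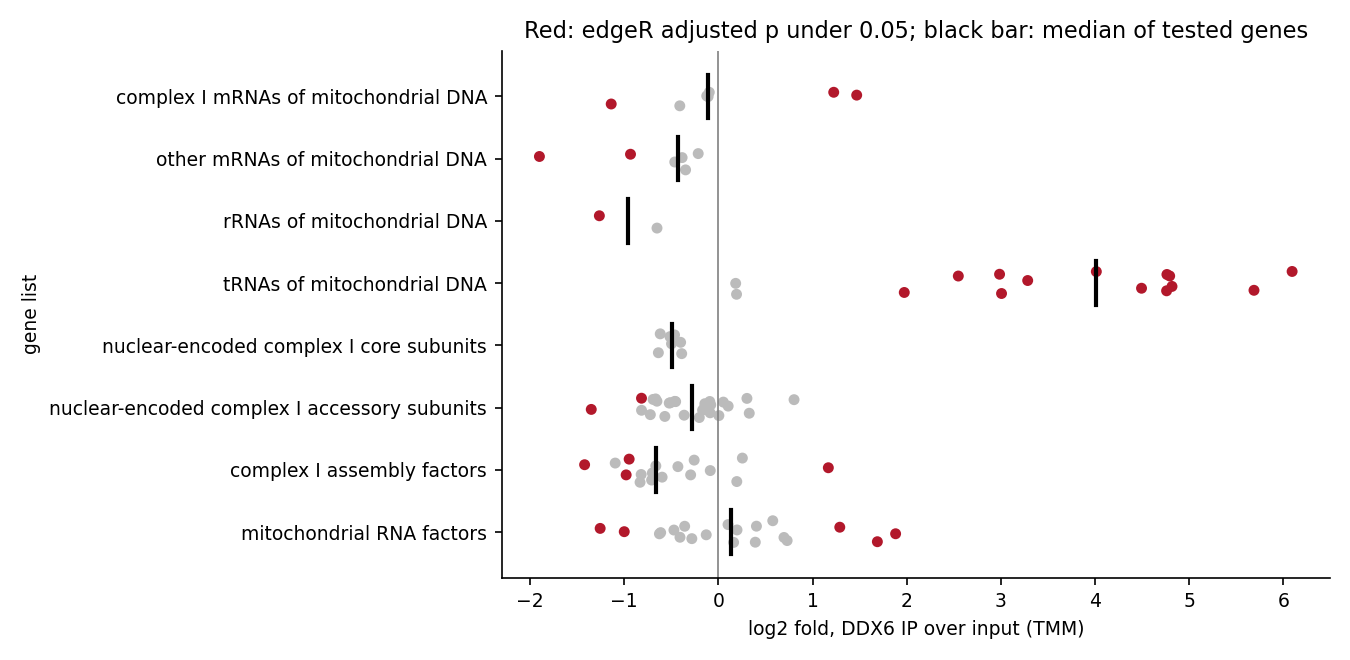
Log2 fold of DDX6 IP over input (TMM scaling) for each tested gene of 8 lists, with the lists down the page; points are genes, spread vertically at random within a list, red where the edgeR adjusted p was under 0.05, and black bars are medians. The 7 complex I mRNAs spread from -1.14 to 1.47, and the 7 nuclear-encoded core subunits from -0.64 to -0.39.

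For the partners of these proteins that the nucleus encodes, the shares called are to be read against the 16.7% higher and 11.4% lower over all genes. Of the 7 nuclear-encoded core subunits edgeR called 0 higher and 0 lower, with 0 and 2 at an unadjusted p under 0.05 and 0 and 0 by DESeq2, all between -0.64 and -0.39 log2 with a median of -0.50. Of 26 tested accessory subunits 0 were higher and 2 lower, with 0 and 5 at an unadjusted p under 0.05, 0 and 0 by DESeq2, and a median of -0.28; the lower ones are 7.69% of the list. The lower ones were NDUFA1 (-1.35, edgeR adjusted p = 0.00825, with 47 and 9 reads in the IP libraries, against 77 in the input) and NDUFA10 (-0.82, edgeR adjusted p = 0.0335, with 133 and 33, against 162). Complex I assembly factors had 1 higher and 3 lower of 17, against 0 and 0 by DESeq2, which gave 7 of them no adjusted p, and a median of -0.66. These are 5.88% and 17.6% of the list. NDUFAF4, an assembly factor, was higher (1.17, edgeR adjusted p = 0.00459), and the iron-sulfur protein gene NUBPL (-1.42), COA1 (-0.98) and ACAD9 (-0.95) were lower.

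Genes for proteins that make, cut and stabilise mitochondrial RNA had 3 higher and 2 lower of 20, against 2 and 0 by DESeq2, with a median of 0.13. At 15% and 10% of the list, the calls were about as frequent as over all genes. The mitochondrial poly(A) polymerase gene MTPAP (1.88, edgeR adjusted p = 7.82e-08), FASTKD3 (1.69) and TRMT10C (1.29), a subunit of the enzyme that cuts tRNA 5' ends, were higher. FASTK (-1.26, edgeR adjusted p = 0.00938) and TBRG4 (edgeR adjusted p = 0.0197), of the same FASTK family as FASTKD3, were lower. DESeq2 kept the calls of MTPAP and FASTKD3. All 7 genes named as lower in these nuclear lists lost their calls with library-size scaling, NDUFA10, COA1, ACAD9 and TBRG4 being above 0 there. NUBPL, COA1, ACAD9, NDUFA10 and TBRG4 also lost theirs with no read filter (edgeR adjusted p from 0.0584 to 0.118).

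The genes most like the median of the 7, by distance between the pairs of replicate log2 folds (-0.22 and -0.01 for the 7), were SRSF1, GRWD1, SNRPD2, SSRP1 and TTF2, at distances of 0.0151 to 0.0348 among 5189 genes over 3 libraries. These 5 were not singular, since 73 genes lay within 0.1.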

How the data were processed

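The submitters' processing notes name hg19 as genome build and list UMI-tools, cutadapt, STAR and SAMtools, with no versions. The sources used here give neither counter, annotation, peak caller nor the handling of strand. For each library the authors deposited a table of raw counts of reads by gene and region. Their deposited peak lists, 1 per IP library and 1 of reproducible peaks, hold a -log10 p of at most 400 and a log2 fold of IP over input. Exonic reads per gene, with at least 10 in at least 2 of 3 libraries, were tested with edgeR 4.0.16 (R 4.3.3). Totals and intergenic reads stayed out of these fits, and intergenic reads made up 4.05% and 3.78% of the IP libraries and 2.63% of the input. The variance rests on the IP pair (1 residual degree of freedom, common dispersion 0.0272), and the single input is taken to vary as much. It is mostly shared over all genes, with 75.8 prior degrees of freedom in the gene fit and infinitely many in the region fit. An SE or p therefore reflects little of a gene's own replicate spread. The SE is the size of the log2 fold divided by the square root of F. For single replicates the prior count was 2. The test was run on simulated data with known changes. These were drawn with the same dispersion for every library, so they cannot show whether the input varies as the IP pair does. Alternatives were library-size scaling, DESeq2 1.42.0, both other filters, intronic reads included, TMM without mitochondrial genes, and each IP library left out. Of 29754 Ensembl identifiers, 28576 matched a symbol. Peak positions are those of the peak lists. The members and lists were chosen with earlier results of these data known. By the naming rule, the text names the 7 genes, the other mitochondrial mRNAs and rRNAs, up to 3 called genes per direction and list, the 3 most read nuclear copies, the 5 nearest genes, and the 3 peaks per gene and list with the highest -log10 p. MT-TG, MT-TL1, MT-TL2, MT-TH, MT-TE, MT-TI, MT-TS2 and MT-TQ, which flank members or lie near them, were named after their values were seen. So were the further peaks along MT-ND1, MT-ND3, MT-ND4L and MT-ND2. Some marker results are not reported here.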

Additional observations from a re-analysis of the deposited data

How the results depend on the processing

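No paired analysis was possible because the single input carries no replicate number. The signs of most values depend on what the reads are scaled to. With library size alone, MT-ND1 was at 1.12, MT-ND4 at 0.089, MT-ND4L at 0.82, MT-ND5 at 1.10 and MT-ND6 at 1.13 log2, and with intronic reads included at 1.06, 0.033, 0.76, 1.04 and 1.08, all reversed from the values above and all but MT-ND4 then called higher. In both settings MT-CO1 (0.88 and 0.82), MT-CO2 (0.84 and 0.79), MT-CO3 (0.76 and 0.71), MT-ATP6 (0.30 and 0.24), MT-CYB (1.01 and 0.95), MT-RNR1 (0.57 and 0.52), SRSF1 (1.11 and 0.96), GRWD1 (1.10 and 0.59), SNRPD2 (1.12 and 0.93) and SSRP1 (1.13 and 0.80) were above 0, and some of them were called higher. With library size alone also above 0 were TTF2 (1.13), NDUFA10 (0.42), COA1 (0.26), ACAD9 (0.30), TBRG4 (0.24) and the coding region of MT-ND4 (0.089), and with no filter the coding region of MT-ND4L was at -0.11. MT-ND2 kept its direction but lost the call with no filter (1.22 log2) and at 30 reads or more (1.15). The 7 genes kept direction and call under DESeq2 and under TMM without mitochondrial genes. With 1 IP library left out no residual degree of freedom remains, so these are values with no test, and MT-ND1 then ran from -0.22 to -0.01, MT-ND2 from 0.91 to 1.48, MT-ND3 from 1.30 to 1.61, MT-ND4 from -1.15 to -1.12, MT-ND4L from -0.46 to -0.36, MT-ND5 from -0.30 to 0.03 and MT-ND6 from -0.15 to -0.05 log2. Genes called higher and lower were 1739 and 1188, or 6990 and 141 with library size alone, 679 and 256 with DESeq2, 1100 higher at 30 reads or more and 2020 lower with introns included. Regions called higher and lower were 7054 and 9183, or 3390 and 5907 with DESeq2, and 11607 were higher with library size alone. The ratio of IP to input share of 2.39 became 1.13 over exonic reads and 1.16 over the 13 mRNAs. Peaks past the threshold were 23 and 11 at a log2 fold of at least 1 and a -log10 p of at least 3, which 44.3% and 28% of coding peaks passed. They were 0 and 1 at a log2 fold of at least 3 and a -log10 p of at least 5, which 8.52% and 5.81% of all peaks passed. The cause of these changes was not tested beyond the construction of each setting.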
